A study of Homo sapiens with 26 samples.

Results

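The guides described here are all those assigned to MYOD1 in the deposited count files, and there were 208 of them among the 11728 guides of the series. They were matched by the gene named beside each guide and not by a measured value, but earlier results of these data were known when MYOD1 was chosen. A set of 10 MYOD1 guides was carried by each of 10 library pools, which makes it a control set measured in 10 separate sorts. Pool TF1 held 10 further MYOD1 guides, an exon scan library held 186, and a small test library held 2. All of them aim at 1 gene, so they are not replicates of a condition, and the SD over guides given below is a spread between guides.

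MYOD1 encodes a basic helix-loop-helix transcription factor that binds DNA at E-box motifs together with an E protein and opens the muscle programme, including MYOG and the genes of the contractile apparatus. Rhabdomyosarcoma is a tumour of cells that express MYOD1 but do not complete muscle differentiation, and in the fusion-positive form PAX3-FOXO1 keeps MYOD1 expressed. In the RefSeq annotation of GRCh38.p14 the gene lies on chromosome 11, from 17719571 to 17722136.

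The cells were RH4, an established alveolar rhabdomyosarcoma line that carries PAX3-FOXO1, and each of the 26 samples counts the guide cassettes amplified from the genomic DNA of a cell pool. In the myo-differentiation screen, cells selected with drug were fixed at day 7 after infection and separated by an antibody against myosin heavy chain (MYH), which marks muscle differentiation, giving an MYH high and an MYH low sample. All 12 libraries went through it: the pools named TF1 to TF3, KP1 and KP2, DR1 and DR2, and CF1 to CF3, the exon scan library and the test library. In the negative selection screen, cells with the exon scan library were taken at day 18 and, as the starting point, at day 3. No other genotype or treatment was labelled, and the labels do not say whether the 2 screens of the exon scan library began with the same infection.

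Total counts were 5548348 in the shallowest sample (DR1 MYH low) and 166032777 in the deepest (CF2 MYH low), and 41345356 to 61334210 in the exon scan. Each arm of each library was 1 sample. Values are log2 ratios of counts scaled to 1000000 per sample (CPM), MYH high over MYH low or day 18 over day 3, so that a negative value means fewer copies of the guide in MYH high cells or at day 18. Pool ratios were centred on the median of all guides of the pool, and those of the exon scan and the test library on the negative-control guides. In pool CF3 the negative controls did not stand near 0: their median was 1.30, against -0.11 to 0.07 in the other 9 pools. Results over the pools are therefore given with and without CF3.

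Over the 10 sorts the shared MYOD1 guides lay on both sides of an even split between MYH high and MYH low cells. The median over the 10 guides averaged 0.01 ± 0.21 (SD, n = 10 pools), and -0.05 ± 0.11 without CF3 (n = 9). By pool it was -0.33 in TF1, -0.07 in TF2, 0.06 in TF3, 0.02 in KP1, -0.05 in KP2, -0.08 in DR1, 0.00 in DR2, 0.00 in CF1, -0.01 in CF2 and 0.52 in CF3. TF1 lay at the low end and CF3 at the high end, and the other 8 pools lay between -0.08 and 0.06, with a mean of -0.01 ± 0.05.

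Against the 10 negative-control guides of the same pools, MYOD1 was lower in 5 of 10 pools. The difference of the medians averaged -0.10 ± 0.27 (SD, n = 10), and it was -0.34 in TF1 and -0.77 in CF3. Over the other 8 pools it averaged 0.01 ± 0.08. MYOD1 thus stood below the negative controls in CF3 although its own value there was the highest of the 10 pools. The shared sets whose medians were most like those of MYOD1 over pools were the negative controls (Pearson's r = 0.84, Spearman's rho = 0.30, n = 10 pools) and FOXO1_non-fusion (r = 0.79, rho = 0.36). These pools share the same guides and cell line, and neither likeness held without CF3 and TF1, where r was 0.06 and -0.36 (n = 8). In CF3 the medians of MYOD1, the negative controls and FOXO1_non-fusion were 0.52, 1.30 and 0.52. In TF1 they were -0.33, 0.01 and -0.07, so the negative controls were not low there.

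Guide by guide, edgeR's quasi-likelihood test with Benjamini-Hochberg adjustment over the 67 guides shared by all pools called 1 of the 10 MYOD1 guides, sgRNA3203, as higher in MYH high cells and none as lower. Of the 67 shared guides, 37.3% were called higher. At an unadjusted p under 0.05 there was 1 MYOD1 guide, the same one. DESeq2 also called 1 MYOD1 guide higher and 0 lower, and it called 29 of the 67 shared guides in either direction. With limma, 0 MYOD1 guides and 22 of the 67 shared guides were called. The p-values measure the spread between these 10 sorts, each of a different library, which is the only replication the design holds.

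In MYH high cells sgRNA3203 had 568 CPM in TF1, 362 in TF2, 299 in TF3, 436 in KP1, 430 in KP2, 513 in DR1, 503 in DR2, 1022 in CF1, 1830 in CF2 and 1965 CPM in CF3. In MYH low cells it had 432 CPM in TF1, 392 in TF2, 297 in TF3, 443 in KP1, 405 in KP2, 594 in DR1, 484 in DR2, 884 in CF1, 881 in CF2 and 1107 CPM in CF3. Its centred log2 ratio was above 0 in 8 of 10 pools, with 1.19 in CF2, 0.95 in CF3 and 0.53 in TF1 and at most 0.29 in the other 7. The fitted log2 ratio was 0.32 (SE 0.12, edgeR's adjusted p = 0.0479, n = 10 pools). Leaving out CF2, CF3, TF1, CF1, KP2 or DR2 each ended the call, with values of 0.23, 0.26, 0.30, 0.33, 0.34 and 0.35. The call also ended with pools centred on their negative controls, at 0.21 (edgeR's adjusted p = 0.262), with no centring, at 0.23 (edgeR's adjusted p = 0.211), and with limma, at 0.33 (limma's adjusted p = 0.0694). In TF1 it was the 1 MYOD1 guide above 0.

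Outside CF3, 2 guides were lower in MYH high cells. In MYH high cells sgRNA3197 had 255 CPM in TF1, 309 in TF2, 381 in TF3, 394 in KP1, 299 in KP2, 581 in DR1, 522 in DR2, 423 in CF1, 349 in CF2 and 685 CPM in CF3. In MYH low cells it had 404 CPM in TF1, 448 in TF2, 478 in TF3, 447 in KP1, 398 in KP2, 581 in DR1, 608 in DR2, 505 in CF1, 458 in CF2 and 414 CPM in CF3. The centred log2 ratio was below 0 in 8 of 10 pools, the exceptions being DR1 (0.11) and CF3 (0.85). In DR1 both arms had 581 CPM, so the 0.11 comes from the centring. Over all 10 pools the fitted value was -0.13 (SE 0.12, edgeR's adjusted p = 0.400), and over the 9 pools without CF3 it was -0.24 (SE 0.07, edgeR's adjusted p = 0.0117).

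sgRNA3196 had a smaller difference of the same direction. Its log2 ratios were -0.24 in TF1, -0.25 in TF2, -0.20 in TF3, -0.01 in KP1, -0.27 in KP2, -0.14 in DR1, -0.04 in DR2, 0.01 in CF1 and -0.13 in CF2, against 0.97 in CF3. The fitted value was -0.03 (SE 0.11, edgeR's adjusted p = 0.823) over 10 pools and -0.14 (SE 0.04, edgeR's adjusted p = 0.0185) without CF3. With TF1 left out as well, both guides were still called lower, sgRNA3197 at -0.20 (edgeR's adjusted p = 0.0259) and sgRNA3196 at -0.13 (edgeR's adjusted p = 0.0422, n = 8 pools). They were the only shared guides called lower over these 8 pools, which is 2.99% of the 67. The call on sgRNA3196 did not hold under 2 other settings, while that on sgRNA3197 did. sgRNA3196 had -0.12 without CF3 when centred on negative controls (edgeR's adjusted p = 0.0546) and -0.13 with limma without TF1 and CF3 (limma's adjusted p = 0.0578). Without CF3, sgRNA3197 stood at 0.849-fold and sgRNA3196 at 0.907-fold in MYH high cells, both short of the 0.3 on the log2 scale (1.23-fold) used below as a limit within single libraries.

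The other 7 shared guides were not called in either direction over the 10 pools, with fitted values of -0.06 to 0.10 and edgeR's adjusted p-values of 0.487 to 0.892. sgRNA3199 had -0.06, sgRNA3202 -0.05, sgRNA3200 0.02, sgRNA3198 0.02, sgRNA3201 0.04, sgRNA3205 0.06 and sgRNA3204 0.10. For all 7 the lowest pool was TF1 and the highest CF3. sgRNA3204 varied most between sorts: it was at 0.38 in TF2, 0.36 in TF3 and 0.34 in DR2, but at -0.32 in DR1 and -0.34 in TF1 and at 0.80 in CF3. Over the 8 pools other than TF1 and CF3, 4 of the 80 MYOD1 values were at or below -0.3 and 4 at or above 0.3. Of all guides in those pools, 5.14% were at or below -0.3 and 9.08% at or above 0.3.

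In TF1, guides against MYOD1 were lower in MYH high cells, and 19 of 20 had a ratio below 0. The median was -0.39 (SD 0.26 over 20 guides), which is a 0.763-fold representation in MYH high cells. At or below -0.3 were 15 of the 20 guides, where the share over all guides of TF1 was 4.04%, and 1 guide, sgRNA3203, was at or above 0.3, where it was 8.55%. MYOD1 guides made up 0.966% of the counts in MYH high cells and 1.39% in MYH low cells. Each arm being 1 sample, no test can be made within the pool. The median counting error of a guide was 0.008 on the log2 scale, and since reads from PCR without molecular identifiers are not independent molecules, such errors cover counting only.

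The 10 MYOD1 guides that only TF1 carried were counted in the same MYH high and MYH low samples, so they are not a separate sort. Their median was -0.48 (SD 0.19), all 10 were below 0 and 8 were at or below -0.3. The lowest were sgRNA366, with 627 CPM in MYH high and 1119 CPM in MYH low cells (log2 ratio -0.70), sgRNA373, with 443 CPM in MYH high and 783 CPM in MYH low cells (-0.68), and sgRNA369, with 327 CPM in MYH high and 569 CPM in MYH low cells (-0.66). The highest was sgRNA367, with 881 CPM in MYH high and 1093 CPM in MYH low cells (-0.17). The 10 shared guides had a median of -0.33 (SD 0.31) in the same sort, 7 of them at or below -0.3, and the ranges of the 2 sets overlapped.

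Among the shared guides in TF1, sgRNA3197 was lowest (-0.53), followed by sgRNA3199 with 575 CPM in MYH high and 894 CPM in MYH low cells (-0.50) and sgRNA3200 with 941 CPM in MYH high and 1456 CPM in MYH low cells (-0.49). sgRNA3202 had -0.42, sgRNA3204 -0.34, sgRNA3205 -0.32, sgRNA3201 -0.32, sgRNA3198 -0.26 and sgRNA3196 -0.24. The ratio of sgRNA3200 was between -0.17 and 0.17 in the 8 pools other than TF1 and CF3 and 0.30 in CF3.

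The difference between TF1 and the other 9 pools was tested with an interaction term for the 10 shared guides. It was negative for 9 of them, from -0.57 for sgRNA3200 to -0.23 for sgRNA3196, and 0.23 for sgRNA3203. None was called: edgeR's adjusted p-values were 0.989 or above, 0 of the 10 MYOD1 guides had an unadjusted p under 0.05, and 0.00% of the 67 shared guides were called in either direction. Without CF3 the difference was again negative for 9 of the 10 MYOD1 guides, from -0.54 for sgRNA3200 (SE 0.15) to -0.11 for sgRNA3196. It was 0.31 for sgRNA3203. The lower MYOD1 values in TF1 thus rest on 1 sort, and their difference from the other sorts of the same guides did not pass the test.

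In the authors' deposited table for TF1, MYOD1 had a beta of -0.264 with a z of -4.32 and a Wald false discovery rate of 0.00175 over its 20 guides, second lowest of 111 targets, and 1.80% of the targets had a Wald false discovery rate under 0.05. Each arm being 1 sample, the authors' z and false discovery rates hold no spread between sorts. The 20 guides are not replicates of a condition. The direction of beta is high over low, since it ran with the median ratios over targets in every pool. Elsewhere in the authors' deposited tables MYOD1 had betas of -0.0606 in KP2, -0.0366 in TF2, -0.0223 in DR1, -0.00379 in CF1, 0.00713 in TF3, 0.0146 in KP1, 0.0296 in DR2, 0.0729 in CF2 and 0.418 in CF3. Of these, the authors' deposited table gave the CF3 value a Wald false discovery rate of 0.156, with a beta of 0.916 for the negative controls beside it.

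CF3 was the opposite extreme. All 10 shared MYOD1 guides were above 0 there, from 0.26 for sgRNA3202 to 0.97 for sgRNA3196, and MYOD1 guides made up 1.57% of the counts in MYH high cells and 1.18% in MYH low cells. At or above 0.3 were 9 of 10, where 18.7% of all CF3 guides were, and 0 of 10 were at or below -0.3, where 16.6% were. Compared with the other 9 pools, the MYOD1 guides were higher in CF3 by 0.32 to 1.11, and edgeR called 6 of the 10 with an interaction term. They were sgRNA3196 at 1.11, sgRNA3197 at 1.09, sgRNA3204 at 0.77, sgRNA3199 at 0.61, sgRNA3205 at 0.55 and sgRNA3198 at 0.48, with adjusted p-values of 8.2e-05 to 0.0461. Of the 67 shared guides, 47.8% were called higher by the same test. CF3 was compared because it stood apart, so these calls restate that and are not independent support.

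This direction depended on the centring. With each pool centred on its negative-control guides, all 10 differences turned negative, from -0.21 to -0.996, and 6 guides were called lower in CF3, where 28.4% of the 67 shared guides were. Among them were sgRNA3200 at -0.996 (edgeR's adjusted p = 0.0118) and sgRNA3202 at -0.98 (edgeR's adjusted p = 0.0101). sgRNA3196 and sgRNA3197 were not called by that centring, at -0.21 and -0.23. The MYH high sample of CF3 held 21819567 counts and its MYH low sample 98457308. Whether depth had a part in the CF3 values was not tested.

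The genes that work with MYOD1 were each measured in a single pool by 9 to 30 guides. Of 60 genes in lists of muscle regulators, MYOD1 partners, inhibitors and cofactors, 26 were measured. No member had a median at or above 0.3 and 2 had one at or below -0.3. The lists were chosen with earlier results of these data known, so these counts are no test of the lists. Over all 984 measurements of targets, 1.52% were at or above 0.3 and 0.813% at or below -0.3, and the median was -0.01 for the lists and for all targets alike. Targets here leave out the guides shared by all pools, apart from those of MYOD1 in TF1.

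The 2 members past the limit were MYOG and MAPK14. MYOG, the MYOD1 target that drives terminal differentiation, had -0.56 in TF1 (SD 0.21, 10 of 10 guides below 0) and was the lowest of 105 targets there, with MYOD1 next to it. MAPK14, the p38 kinase that promotes the activity of MYOD1 complexes, had -0.31 in KP2 (SD 0.12, 10 of 10 guides below 0) and was the lowest of 98 targets. MYF5 and MYF6, the other 2 members of the MYOD family, and the E proteins TCF3, TCF4 and TCF12 had no value here.

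Among proteins that restrain MYOD1, ID3, which sequesters E proteins, had 0.25 in TF2 (SD 0.26, 10 of 10 guides above 0). That was the highest of 108 targets once the guides shared by all pools were left out. The shared sets PCNA (0.35), FOXO1_fusion (2.33) and PAX3_Fusion_DBD (2.91) were higher in TF2. ID2 had 0.00 and ID4 -0.12 in the same pool. Of the corepressors, HDAC3 had 0.21 in CF2 (SD 0.13, 10 of 10 above 0) and the histone methyltransferase EHMT2 0.14 (SD 0.15, 10 of 10 above 0), and the 6 corepressors measured ranged from -0.06 to 0.21. The 8 coactivators ranged from MAPK14 up to the chromatin remodeller SMARCA4, with 0.22 in CF2 (SD 0.23, 19 of 21 guides above 0). The acetyltransferases CREBBP and EP300 had -0.19 and -0.11, both in CF3, where the negative controls stood at 1.30. The 7 measured partners of the MEF2, homeobox, TEAD and SRF kind ranged from -0.06 for MEF2B to 0.14 for SIX5.

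In the exon scan sort, the 186 MYOD1 guides were spread around a value slightly above that of the negative controls. The median was 0.09 (SD 0.22), which is 1.06-fold, with 120 guides above 0 and 66 below, and the quartiles were -0.05 and 0.22. At or above 0.3 were 32 guides (17.2%) and at or below -0.3 were 4 (2.15%). Over all 1619 guides of the library these shares were 19.5% and 1.98%, and among the 790 negative-control guides they were 5.82% and 2.28%. PAX3 guides had a median of 0.28 and FOXO1 guides 0.17, with 46.2% and 33.1% at or above 0.3. Centring moves all guides alike, so the MYOD1 median was 0.02 when centred on all guides and -0.01 with no centring, and stood 0.09 above the negative-control median throughout.

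The highest MYOD1 guides in this sort were MYOD1_8, with 679 CPM in MYH high and 363 CPM in MYH low cells (log2 ratio 0.99), and MYOD1_88, with 215 CPM in MYH high and 131 CPM in MYH low cells (0.80). In MYH high cells MYOD1_63 had 491, MYOD1_92 had 170 and MYOD1_31 had 1065 CPM, against 353, 123 and 779 CPM in MYH low cells (log2 ratios 0.57, 0.55 and 0.54). These were the 5 guides above 0.5, and the highest negative control reached 0.83. The lowest were MYOD1_80, with 123 CPM in MYH high and 176 CPM in MYH low cells (-0.42), and MYOD1_86, with 100.2 CPM in MYH high and 141 CPM in MYH low cells (-0.40). In MYH high cells MYOD1_166 had 134, MYOD1_186 had 418 and MYOD1_149 had 163 CPM, against 183, 554 and 214 CPM in MYH low cells (log2 ratios -0.35, -0.31 and -0.30). All of these lie inside the range of the negative controls, whose lowest guide was at -0.52, except MYOD1_8, which was above their highest.

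In the negative selection screen MYOD1 guides were fewer at day 18 than at day 3. They made up 4.90% of the counts at day 18 and 7.10% at day 3. The median log2 ratio was -0.78 (SD 0.60 over 186 guides), a 1.72-fold lower representation relative to the negative controls, and 175 guides were below 0. At or below -0.5 (1.41-fold) were 132 guides (71.0%), where the share over the library was 29.3% and among negative controls 0.253%. At or below -1 were 66 MYOD1 guides (35.5%), where 16.9% of the library were, and at or below -2 were 7 (3.76%), where 3.03% were. 1 guide was at or above 0.5, where 1.73% of the library were. Each day was 1 sample, so no test between the days can be made.

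The strongest single value belonged to MYOD1_186, with 102 CPM at day 18 against 729 CPM at day 3 (log2 ratio -3.06, an 8.32-fold difference). MYOD1_111 had 112 CPM at day 18 and 478 CPM at day 3 (-2.32), and MYOD1_165 had 92.7 CPM at day 18 and 394 CPM at day 3 (-2.31). At day 18 MYOD1_169 had 156 and MYOD1_96 had 128 CPM, against 624 and 489 CPM at day 3 (log2 ratios -2.22 and -2.15). All 5 had 394 CPM or more at day 3, above the median of 334 CPM over the MYOD1 guides. The day 3 value is also the denominator of the ratio, so abundance and ratio are not independent here. At the other end, MYOD1_118 had 730 CPM at day 18 and 439 CPM at day 3 (0.51), MYOD1_73 had 89.0 CPM at day 18 and 54.4 CPM at day 3 (0.47), and MYOD1_9 had 207 CPM at day 18 and 138 CPM at day 3 (0.35). MYOD1_62 and MYOD1_119 had 0.26 and 0.25. MYOD1_61 was nearly absent, with 16, 21, 16 and 46 counts in the MYH high, MYH low, day 18 and day 3 samples, and a counting error of 0.42 on the log2 scale in the dropout.

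Taken as a pair, the 2 exon scan medians of MYOD1 were closest to those of CDK1, a cell-cycle kinase (5 guides, sort median 0.24, dropout median -0.81), and PAX3 (249 guides, 0.28 and -0.84). The Euclidean distances between the pairs were 0.16 and 0.20, the smallest among 10 other sets with at least 3 guides, which include the negative controls. In the sort alone, MYOD1 (0.09) was nearer to RPL23A (0.02), FOXO1 (0.17) and the negative controls (0) than to CDK1 or PAX3. MYOD1 and PAX3 medians in the dropout were close, at -0.78 and -0.84, and FOXO1 had -0.42. The shares at or below -2 were 3.76% for MYOD1, 12.0% for PAX3 and 2.80% for FOXO1, so PAX3 had the longer lower tail. These are descriptions over guides of 3 genes in the same 2 samples.

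Across the 186 guides the 2 readouts had little relation, with Pearson's r = -0.08 and Spearman's rho = -0.07 across guides, which share the library and the gene. Of the 32 MYOD1 guides at or above 0.3 in the sort, 25 were at or below -0.5 in the dropout (median -1.07, SD 0.50), and of the other 154 guides, 107 were (median -0.76, SD 0.62). The 4 guides at or below -0.3 in the sort were divided, 2 of 4 being at or below -0.5. For PAX3 the same split gave dropout medians of -1.55 for 115 guides and -0.42 for the other 134, and for FOXO1 -1.14 for 118 guides and -0.28 for the other 239. The MYOD1 guides below 0.3 in the sort were thus lower in the dropout than PAX3 or FOXO1 guides of that class. Whether the split differs between genes was not tested.

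The dropout values were also split by abundance at day 3. The 6 MYOD1 guides with under 100 CPM at day 3 had a dropout median of -0.16 (SD 0.46), those with 100 to 300 CPM -0.77 (72 guides), those with 300 to 600 CPM -0.81 (78 guides) and those with 600 CPM or more -0.95 (30 guides). The 4 negative controls with under 100 CPM had a dropout median of 0.48 (SD 0.54), and those of the upper 3 classes 0.00 to 0.01. In the dropout the MYOD1 median was below that of the negative controls in all 4 classes. The day 3 value is also the denominator of the dropout ratio, so a trend over these classes cannot be read as an effect of abundance. Sort medians of the MYOD1 guides were -0.04, 0.07, 0.10 and 0.12 over the same 4 classes.

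The number in a guide's name gave little order to the values, and the labels do not say what the number follows. In 6 runs of 31 consecutive numbers the dropout medians were -0.74, -0.61, -0.77, -0.67, -0.85 and -1.13, with SDs of 0.46 to 0.73 within the runs. The last run, numbers 156 to 186, was the lowest, and 27 of its 31 guides were at or below -0.5, against 17 of 31 in the run of numbers 32 to 62. Guides with neighbouring numbers were almost unrelated in the dropout (r = 0.04 over 185 pairs) and in the sort (r = -0.08).

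In the test library the 2 MYOD1 guides were near the negative controls. MYOD1_E1_7 had 4238 CPM in MYH high and 4917 CPM in MYH low cells (log2 ratio -0.10), and MYOD1_E1_10 had 6893 CPM in MYH high and 7754 CPM in MYH low cells (-0.06). Its 50 negative-control guides spread with an SD of 0.15 and ranged from -0.41 to 0.27, with 12 of them below MYOD1_E1_7 and 18 below MYOD1_E1_10. Neither guide passed 0.3 in either direction, where 4.12% of the 97 guides of that library were at or below -0.3 and 15.5% at or above 0.3.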

How the data were processed

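Per the labels' protocols, guide cassettes were amplified by PCR from genomic DNA and sequenced. For 26 samples the authors deposited unnormalized counts of reads by guide. For each pool they also deposited, per the file headers, a score (beta with its z), a p-value and a false discovery rate by target. The submitters' processing notes name FastQC and MAGeCK, with no version. Read trimming and build: not given in the sources used here. MYOD1 guides were matched by the gene column. The members, gene lists and tests were chosen with earlier results of these data known.

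CPM were taken from the sample totals and 1 CPM was added before log2. A minimum of 10 counts, summed over the 2 arms, applied, and all MYOD1 guides passed it. A target's value is the median over its guides, and targets in the pools needed 3 guides. Guides shared by all pools were left out of these targets, apart from those of MYOD1 in TF1. Shared guides were fitted with edgeR 4.0.16 (quasi-likelihood test, pool as a block, offsets from library totals and the pool median; threshold 0.05), with terms for TF1 and CF3 against the other 9 pools. DESeq2 1.42.0 and limma 3.58.1 were alternatives, beside other centrings, pseudocounts, count minimums and leaving out each pool. The edgeR fit over the 10 pools, without the terms for TF1 and CF3, was tested on simulated counts. These held no pool shifted like CF3. R 4.3.3, Python 3.11.15, numpy 2.4.6 and pandas 2.3.3 were used.

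Named were all shared guides, the 3 lowest and the highest of those only in TF1, the 5 highest and 5 lowest of each exon scan readout, both test library guides, list members past the limit, and the 2 nearest sets or targets. Other list members and MYOD1_61 were chosen after their values were seen. 1 shared control guide, sgRNA3191, carries 2 labels and is no MYOD1 guide.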

Additional observations from a re-analysis of the deposited data

Results flagged for a closer look

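Pool CF3 lay far from the other 9 pools. The 11 values examined over the 10 pools were the median of the shared MYOD1 guides and each guide. In 3 of them CF3 lay so far above the nearest other pool that the gap passed Dixon's limit. Chance flags about 1 in 20 such groups. The 11 values are not independent, since the median comes from the same guides and all share the centring of CF3. Their count can therefore not be set against that rate. The median was 0.52 in CF3, and the next highest pool had 0.06. sgRNA3196 had 0.97 in CF3 and at most 0.01 elsewhere. sgRNA3197 had 0.85 in CF3 and at most 0.11 elsewhere.

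The difference between CF3 and the other 9 pools passed edgeR's threshold for 6 shared MYOD1 guides, as it did for 47.8% of all shared guides. CF3 is 1 sort and was compared because it stood apart, so the test adds no support of its own. It was 1.11 for sgRNA3196, 1.09 for sgRNA3197, 0.48 for sgRNA3198, 0.61 for sgRNA3199, 0.77 for sgRNA3204 and 0.55 for sgRNA3205. With each pool centred on its negative-control guides these values were -0.21, -0.23, -0.83, -0.71, -0.54 and -0.76.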

How the results depend on the processing

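Of 212 values recomputed under an alternative, 167 stayed on their side of the threshold, within the spread or within 1.5 times the count, and 45 did not; the causes were not tested. Of the 167, 5 changed sign within the spread. The mean of the shared-guide medians, 0.01, was -0.10 centred on negative controls, -0.09 with no centring, -0.05 without CF3 and -0.01 without TF1 and CF3. The exon scan sort median was -0.01 with no centring. Over the 10 pools, 1 MYOD1 guide was called higher. That count was 0 when centred on negative-control guides (with or without CF3), with no centring, with limma (with or without TF1 and CF3) and without TF1 and CF3, and 0 to 1 when leaving out 1 pool. DESeq2 and TMM factors kept the call. The count called lower was 0, but 1 when centred on negative controls, 1 when so centred without CF3, 1 with limma without TF1 and CF3 (sgRNA3197 in each of these), 2 without TF1 and CF3, and 0 to 2 when leaving out 1 pool. Settings that left out both TF1 and CF3, or CF3 together with the centring on negative controls, were chosen after seeing the data.

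The count of guides higher in CF3 was 6, and 0 when centred on negative controls, where 6 were lower in place of 0. Leaving out 1 pool gave 4 to 6. No difference of TF1 from the other pools was called under any setting. In the exon scan sort, 32 guides at or above 0.3 became 20 when centred on all guides and 15 with no centring, and 4 at or below -0.3 became 11 and 12. In the dropout, the count at or above 0.5 was 3 in place of 1 under both. The test library mean was -0.19 with no centring. Median counting errors of a shared MYOD1 guide were 0.00651 to 0.0264 over the pools and do not cover the spread between sorts. The MYH high and MYH low samples of a pool were paired throughout, with the pool as a block.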

Other observations

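The day 7 sort samples of the exon scan can be set beside its day 3 sample, a comparison chosen after the values were seen. With both sorted arms averaged, MYOD1 had a median of -0.15 for day 7 over day 3 on the log2 scale (SD 0.21 over 186 guides, 144 below 0), PAX3 guides -0.28 and FOXO1 guides -0.16. MYH high cells over day 3 had a MYOD1 median of -0.11 and MYH low cells over day 3 one of -0.19. The sorted cells were fixed and stained and belong to the other screen, so these values also hold whatever separates the screens, which was not tested.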
